A study of Mus musculus with 11 samples.

Results

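The genes described here are 38 genes of the hypoxia response and of glycolysis, out of 21846 genes counted by RNA sequencing in cultured mouse mammary carcinoma cells. They were taken by symbol and fall into 5 roles: 5 genes of the hypoxia-inducible factor (HIF) system, 4 transporters, 17 glycolytic enzymes, 4 regulators of glycolysis and 8 other HIF target genes. All 38 were found in the table. The study followed what becomes of HER2-driven mammary tumor cells once they lose the human HER2 oncogene, which the mice carry as a transgene on the FVB background. The mouse genes counted here do not include that transgene.

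The 11 libraries came from 3 cell lines of virgin female HER2-transgenic mice, and each line stands for a single tumor. MamBo89 (HER2 stable) came from tumor A, MamBo43 (HER2 labile) from tumor B, and MamBo38 (HER2 loss) from a tumor that grew after injection of MamBo43 cells, so MamBo38 and MamBo43 share an origin. Each line was cultured untreated or with trastuzumab, an antibody against HER2, at 30 µg/ml, either for 60 days or for 30 days followed by 30 days without it. The 6 HER2-negative libraries were 4 of MamBo38 (2 untreated, 1 of each schedule) and 2 of trastuzumab-treated MamBo43 (1 of each schedule), the latter seeded at high density. The 5 HER2-positive libraries were 4 of MamBo89 (an untreated library named AG3, an untreated parental one and 1 of each schedule) and 1 of untreated MamBo43. The study lists a HER2-positive clone of MamBo89. AG3 is the only untreated MamBo89 library besides the parental one, so it is taken as that clone. HER2 status was read from the methods of the study, since the labels give only loss, labile or stable. No culture was exposed to low oxygen by design, and the oxygen and density at harvest are not given in the sources used here.

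HIF is a pair of proteins, an oxygen-sensitive alpha subunit (HIF-1α from Hif1a or HIF-2α from Epas1) and a constant partner (ARNT). Prolyl hydroxylases such as those from Egln1 and Egln3 mark the alpha subunit for destruction when oxygen is present, so the control is largely on protein and not on mRNA. HIF binds the core sequence ACGTG or GCGTG and raises genes for glucose uptake, glycolysis, lactate export, pH control and mitophagy. Several glycolytic steps are run by alternative enzymes from separate genes, and tumor cells often use another set than normal epithelium.

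Total counts per library ran from 17040454 to 27127662, and levels are CPM (counts relative to library size) with TMM scaling, which corrects for composition between libraries. Markers of cell state moved with the groups. The summed level of 8 luminal and general epithelial markers was 1.49 to 2.96 CPM in MamBo38, 397 to 2489 in treated MamBo43, 3891 in untreated MamBo43 and 2668 to 4048 in MamBo89. The 8 mesenchymal markers summed to 20054 to 28817, 37222 to 43235, 836 and 239 to 2393 CPM in the same order. At least 5 of the 8 mesenchymal genes exceeded 1 CPM in each line, and Krt19 of the epithelial list was at or near 0 in all libraries. The HER2 groups did not overlap in the mesenchymal sum, and the part of these states in the HER2 differences was not tested. Leukocyte markers summed to 26.8 to 50.03 CPM in MamBo38 and 1.02 to 16.8 in the other libraries, with 1 of 6 genes over 1 CPM. Basal markers summed to 8.29 to 48.0 CPM outside treated MamBo43, where they summed to 114 to 623. Endothelial markers summed to at most 1.78 CPM and adipocyte markers to at most 0.113 CPM. In bulk RNA, fewer cells of a kind and less RNA per cell cannot be told apart. The p-values measure the spread between these cultures only.

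The promoters of 6 genes that the results turn on are printed with every ACGTG and GCGTG, the letters of the HIF core on either strand (CACGT and CACGC on the other), in capitals. The 6 were picked for their place in the results, and the Eno2 window holds neither. Slc16a3, Adm and Eno2 were higher, and Egln3, Car9 and Pgk1 lower, in the HER2-negative libraries. The sequences are from RefSeq on build GRCm38.p6 and cover 250 bases before to 50 bases after the start of the gene, on chr11:120948817-120949116 (plus strand) for Slc16a3, chr7:110627407-110627706 (plus) for Adm, chr12:54203825-54204124 (minus) for Egln3, chr4:43506776-43507075 (plus) for Car9, chrX:106186850-106187149 (plus) for Pgk1 and chr6:124769624-124769923 (minus) for Eno2. The start is the one RefSeq gives, which for Slc16a3 lies inside the wider gene span given below.
Slc16a3: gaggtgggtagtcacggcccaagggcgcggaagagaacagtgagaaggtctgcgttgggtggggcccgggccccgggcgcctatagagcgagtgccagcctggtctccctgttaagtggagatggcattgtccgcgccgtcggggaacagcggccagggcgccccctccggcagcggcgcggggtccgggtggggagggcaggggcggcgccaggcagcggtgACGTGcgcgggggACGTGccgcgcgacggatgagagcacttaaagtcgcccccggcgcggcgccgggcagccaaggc
Adm: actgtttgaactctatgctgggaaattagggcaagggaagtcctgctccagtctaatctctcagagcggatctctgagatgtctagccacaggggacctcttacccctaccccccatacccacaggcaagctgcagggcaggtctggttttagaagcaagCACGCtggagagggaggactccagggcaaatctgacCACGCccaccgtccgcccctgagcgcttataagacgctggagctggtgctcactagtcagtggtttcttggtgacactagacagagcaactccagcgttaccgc
Egln3: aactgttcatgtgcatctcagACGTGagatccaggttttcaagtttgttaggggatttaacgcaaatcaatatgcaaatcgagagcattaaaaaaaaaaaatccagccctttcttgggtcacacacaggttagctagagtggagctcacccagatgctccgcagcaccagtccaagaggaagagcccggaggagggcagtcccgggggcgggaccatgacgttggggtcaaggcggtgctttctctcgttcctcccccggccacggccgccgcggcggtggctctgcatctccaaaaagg
Car9: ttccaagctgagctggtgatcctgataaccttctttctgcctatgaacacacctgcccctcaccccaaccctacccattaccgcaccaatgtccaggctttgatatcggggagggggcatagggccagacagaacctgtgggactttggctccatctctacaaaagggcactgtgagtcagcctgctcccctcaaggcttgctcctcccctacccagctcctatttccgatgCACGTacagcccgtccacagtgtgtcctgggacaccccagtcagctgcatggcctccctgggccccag
Pgk1: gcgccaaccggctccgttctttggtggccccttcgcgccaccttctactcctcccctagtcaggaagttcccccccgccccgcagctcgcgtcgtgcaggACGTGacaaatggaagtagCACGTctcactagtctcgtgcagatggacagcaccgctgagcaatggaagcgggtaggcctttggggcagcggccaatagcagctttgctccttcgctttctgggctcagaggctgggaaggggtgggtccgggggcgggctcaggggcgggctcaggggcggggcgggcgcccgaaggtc
Eno2: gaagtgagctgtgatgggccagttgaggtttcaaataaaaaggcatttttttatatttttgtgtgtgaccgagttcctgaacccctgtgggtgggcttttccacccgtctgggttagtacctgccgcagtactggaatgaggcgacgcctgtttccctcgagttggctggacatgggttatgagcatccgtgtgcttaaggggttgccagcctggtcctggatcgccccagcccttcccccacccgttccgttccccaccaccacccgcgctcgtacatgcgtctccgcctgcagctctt
A promoter was in the reference for 34 of the 38 genes (not for Epas1, Slc2a3, Bnip3l and Ndrg1), with 47 promoters in all. ACGTG, on either strand, was in 25 of the 47, or 53.2%, beside 19.6% of the 32851 promoters of all genes in the table. GCGTG was in 57.4% beside 32.4%, and at least 1 of them in 80.9% beside 43.8%. An E-box CACGTG reads ACGTG on both strands and so counts for both. The members' promoters also had a higher GC content, with a median of 61.3% beside 52.7%. Among genes with a promoter, ACGTG stood in 3 of the 7 called higher in HER2-negative libraries, 7 of the 9 called lower and 12 of the 18 not called.

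The first comparison asks how the loss of HER2 went along with this gene program. Of the 38 genes, 18 were called (edgeR adjusted p under 0.1 with a change of 2-fold or more, a log2 fold change beyond 1 or −1), 8 higher and 10 lower in the 6 HER2-negative libraries. That is 47.4% of the members, beside 32.8% of the 12364 genes tested (15.8% higher and 17.0% lower). At the adjusted p alone 24 members passed, 63.2% beside 60.3% of all genes (29.0% higher and 31.3% lower). The levels of the 2 groups did not overlap in 11 members, 28.9% beside 34.9%. The median log2 fold change over the members was −0.06, beside −0.04 over all genes tested. DESeq2 called 16 members, beside 31.8% of all genes. Both directions were met in every role but the transporters. Those called higher were Hif1a, Slc2a3, Slc16a3, Pfkm, Eno2, Pfkfb4, Car12 and Adm, and those called lower were Epas1, Egln1, Egln3, Aldoc, Pgk1, Eno1, Pdk1, Pdk3, Car9 and Ddit4.

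The labels carry 1 of 2 codes. The first code is on 3 of the 4 MamBo38 libraries (an untreated one and both treated ones) and the second on the other 8 libraries, so code and line are partly confounded. Within the 8 libraries of the second code, 14 members were called, all of them among the 18. The share of all genes called in that fit is not given. The members not called there were Epas1, Pfkm (log2 0.87, adjusted p = 0.174), Pdk3 (−0.93, adjusted p = 0.0219) and Car12 (2.14, adjusted p = 0.180).

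**Figure D1:**
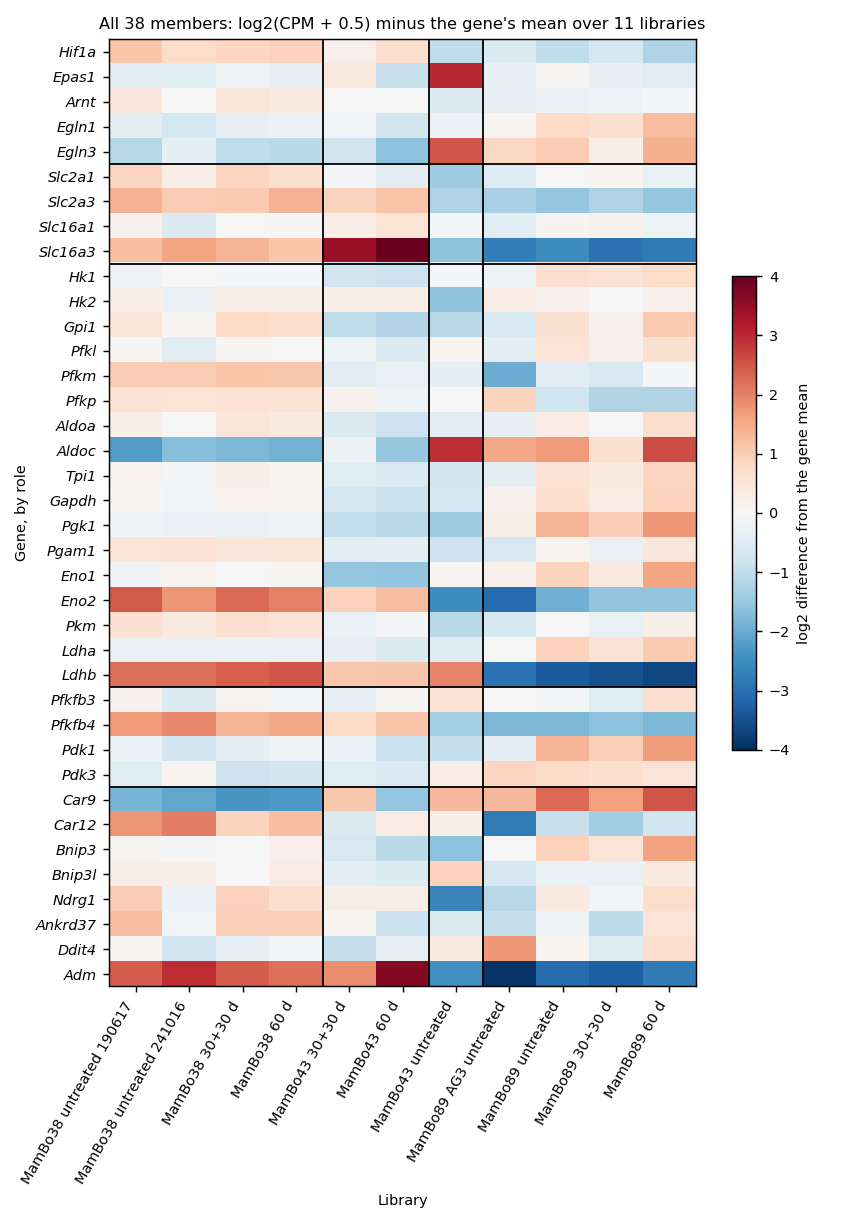
Each cell is the log2 of the CPM plus 0.5 of 1 gene in 1 library, minus that gene's mean over the 11 libraries; genes are in rows by role and libraries in columns by line, with the label codes on the untreated MamBo38 columns (first code, then second). Of the 11 libraries, untreated MamBo43 had the lowest level in 10 members, the highest in 4 and a level inside the range in 24. The shares over all genes are not given.

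Hif1a was higher in HER2-negative libraries, while a lower Epas1 rested on a single library. Hif1a (chr12:73901375-73947530, a protein-coding gene like all those placed here, on GRCm38) had 351, 275, 296 and 310.3 CPM in MamBo38, listed as untreated of the first code, untreated of the second code, 30 + 30 days and 60 days, an order kept for this line throughout. It had 188 and 265 CPM in treated MamBo43 (30 + 30 days, then 60 days), 81.1 in untreated MamBo43, and 111, 81.1, 100.2 and 70.0 in MamBo89 (AG3, parental, 30 + 30 days, 60 days). Every HER2-negative library was above every HER2-positive one. The means were 281 ± 54.5 CPM (SD, n = 6) and 88.8 ± 16.7 (SD, n = 5), a 3.16-fold difference with a log2 fold change of 1.66 ± 0.18 (SE) and an adjusted p of 2.96e-05.

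Epas1 (chr17:86753700-86833410) had 269 CPM in untreated MamBo43, while the other 10 libraries lay between 17.6 and 43.8 CPM. The log2 fold change was −1.47 ± 0.65 (adjusted p = 0.0763), and without untreated MamBo43 it was −0.02 (adjusted p = 0.939). Arnt (chr3:95434388-95497240) differed by 0.50 ± 0.14 on the log2 scale (adjusted p = 0.0102), with 100.8 to 142 CPM in HER2-negative and 69.5 to 97.3 in HER2-positive libraries and no overlap, below the fold needed for a call.

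Both prolyl hydroxylases were lower in HER2-negative libraries. Egln3 (chr12:54178981-54203860), a hydroxylase that HIF itself induces, had 50.02, 86.6, 53.9 and 51.6 CPM in MamBo38 and 62.5 and 34.7 in treated MamBo43. It had 629.7 CPM in untreated MamBo43 and 197, 221, 134 and 297 in MamBo89. The groups did not overlap, and the untreated MamBo43 level was more than that of any other library. The difference was 5.23-fold (log2 −2.39 ± 0.38, adjusted p = 0.000357). Egln1 (chr8:124908587-124949324), the main oxygen sensor, had 52.5 to 82.6 CPM in HER2-negative libraries and 74.6 to 216 in HER2-positive ones, which overlapped (log2 −1.01 ± 0.25, adjusted p = 0.00571). Its fold change sat at the limit for a call and fell below it in 4 of the 11 fits that left out a library, those without the second-code untreated MamBo38, MamBo43 60-day, parental MamBo89 or MamBo89 60-day library, the last giving −0.78.

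Of the 4 transporters, the alternative lactate exporter and the alternative glucose carrier were higher in HER2-negative libraries. Slc16a3 (MCT4, chr11:120948480-120960868), which exports lactate from glycolytic cells, had 10.5, 13.7, 11.7 and 9.75 CPM in MamBo38 and 51.1 and 70.7 in treated MamBo43. It had 1.06 CPM in untreated MamBo43 and 0.194, 0.323, 0.117 and 0.165 in MamBo89. All HER2-negative libraries were higher, and treated MamBo43 was highest. The counts were 3811 against 43, a ratio of 71.0 (95% counting interval 52.6 to 98.2, exact binomial), with a log2 fold change of 6.16 ± 0.89 and an adjusted p of 0.000197. Of the 43 counts, 27 were in untreated MamBo43, so the ratio depends on that library beyond the counting interval. Its widely expressed relative Slc16a1 (MCT1, chr3:104638668-104658462), at 102 to 222 CPM in HER2-negative and 111 to 170.5 in HER2-positive libraries, overlapped between groups and did not pass (log2 0.19 ± 0.19, adjusted p = 0.404).

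Slc2a3 (GLUT3, chr6:122727809-122801640), a glucose carrier of high affinity, was low throughout, with 2.21 to 3.33 CPM in HER2-negative libraries, 0.118 in untreated MamBo43 and 0 to 0.117 in MamBo89. The counts were 360 against 7, a ratio of 41.2 (interval 19.8 to 103), with an adjusted p of 5.57e-05. Slc2a1 (GLUT1, chr4:119108711-119137983), the main glucose carrier of carcinoma cells, had 675, 454, 675 and 595 CPM in MamBo38, 356 and 280.0 in treated MamBo43, 140.0 in untreated MamBo43 and 264, 374, 399 and 305 in MamBo89. MamBo38 was above every other library, but treated MamBo43 lay within the range of MamBo89. The log2 fold change of 0.77 ± 0.30 (adjusted p = 0.0516) passed the p but not the fold for a call.

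Among the 17 glycolytic enzymes 5 were called, Pfkm and Eno2 higher and Aldoc, Pgk1 and Eno1 lower. At the adjusted p alone 9 passed, 3 higher and 6 lower. The clearest differences were in alternative enzymes of a step. Eno2 (chr6:124760053-124769673), the enolase best known from neurons, had 219, 137, 192 and 163 CPM in MamBo38 and 75.5 and 93.5 in treated MamBo43. It had 6.45 CPM in untreated MamBo43 and 4.27, 10.01, 12.8 and 13.0 in MamBo89. The groups were far apart, at 147 ± 55.6 CPM (SD, n = 6) and 9.31 ± 3.87 (SD, n = 5), a 15.8-fold difference (log2 3.98 ± 0.39, adjusted p = 1.87e-05).

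Eno1 (chr4:150236721-150248879), the enolase of most tissues, had 359, 434, 396 and 416 CPM in MamBo38, 135 and 131 in treated MamBo43, 417 in untreated MamBo43 and 453, 741, 506 and 1182 in MamBo89. Treated MamBo43 was lowest and MamBo89 was highest. The log2 fold change was −1.08 ± 0.40 (adjusted p = 0.0386), and it was −0.77 (adjusted p = 0.115) without the MamBo89 60-day library and −0.92 without either treated MamBo43 library. Eno1 shares 22.6% of its 75-base windows with Eno1b, whose counts were 0.969 to 1.12 times those of Eno1 in every library, and reads they share could be assigned to either. With their counts summed, a setting chosen after seeing the data, the log2 fold change was −1.05 (adjusted p = 0.0397).

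Aldoc (chr11:78322968-78327781), an aldolase typical of brain, went the other way from Eno2. It had 4.24, 6.25, 5.90 and 5.44 CPM in MamBo38, 18.4 and 7.27 in treated MamBo43, 169.6 in untreated MamBo43 and 62.4, 71.1, 33.7 and 135 in MamBo89. No HER2-negative library reached the lowest HER2-positive one. The difference was 11.9-fold (log2 −3.58 ± 0.50, adjusted p = 0.000152). The common aldolase gene Aldoa, at 766 to 1907 CPM in HER2-negative and 1006 to 2211 in HER2-positive libraries, overlapped (log2 −0.07).

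Pgk1 (chrX:106187100-106203699), a kinase that makes ATP in the lower part of the pathway, had 938 to 1019 CPM in MamBo38, 563 and 517 in treated MamBo43, 416 in untreated MamBo43 and 1326, 2874, 2217 and 3701 in MamBo89. MamBo89 was above all 7 libraries of tumor B, and untreated MamBo43 was lowest. The log2 fold change was −1.35 ± 0.44 (adjusted p = 0.0238). Pgk1 shares 52.8% of its 75-base windows with other genes, Pgam1 34.9% and Bnip3 34.4%, so their counts are less certain. Pfkm, the muscle form of phosphofructokinase, had 122 to 131 CPM in MamBo38 and 15.1 to 56.9 in the other 7 libraries (log2 1.31 ± 0.39, adjusted p = 0.0145).

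Treated MamBo43, at 45.6 and 49.3 CPM of Pfkm, lay on either side of untreated MamBo43, at 46.5. Ldhb (chr6:142490249-142507957), the dehydrogenase that favors pyruvate, separated the tumors and not the HER2 groups. It had 31.2 to 38.7 CPM in MamBo38, 14.0 and 14.5 in treated MamBo43, 26.5 in untreated MamBo43 and 0.388, 0.184, 0.117 and 0.0551 in MamBo89. It did not pass the HER2 comparison (log2 2.33 ± 1.33, adjusted p = 0.164), and without untreated MamBo43 its log2 fold change was 7.13 (adjusted p = 5.41e-06). Pfkp had 125 to 213 CPM in HER2-negative libraries, 141 in untreated MamBo43, 261 in AG3 and 60.6 to 81.0 in the other MamBo89 libraries, and it was called higher in the fit without AG3 (log2 1.14, adjusted p = 0.00598, beside 0.63 and 0.177).

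The other enzymes overlapped between the groups. Of these, 4 passed the p but not the fold: Hk1, a hexokinase (149 to 273 CPM in HER2-negative and 240.4 to 449.7 in HER2-positive libraries, log2 −0.67 ± 0.22, adjusted p = 0.0265), Pfkl, the liver phosphofructokinase (177 to 273 and 198 to 396 CPM, −0.43 ± 0.19, adjusted p = 0.0799), Ldha, the main lactate dehydrogenase (743 to 908 and 763 to 2224 CPM, −0.85 ± 0.24, adjusted p = 0.0127), and Pkm, the pyruvate kinase (1729.5 to 3362 and 963 to 2452 CPM, 0.66 ± 0.27, adjusted p = 0.0568). Ldha was called without untreated MamBo43 (−1.02, adjusted p = 0.000761). Hk2 (70.0 to 105 and 28.0 to 107 CPM), Gpi1 (414 to 1621 and 421 to 1933 CPM), Tpi1 (518 to 933 and 474 to 1426 CPM), Gapdh (508 to 1024 and 559.6 to 1752 CPM) and Pgam1 (338 to 678 and 256 to 619 CPM) did not pass, with log2 fold changes from −0.54 to 0.43.

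By line, all MamBo89 libraries were above all MamBo38 libraries in 9 members (Egln1, Egln3, Aldoc, Gapdh, Pgk1, Eno1, Ldha, Pdk3 and Car9) and below them in 13 (Hif1a, Arnt, Slc2a1, Slc2a3, Slc16a3, Pfkm, Pgam1, Eno2, Pkm, Ldhb, Pfkfb4, Car12 and Adm), and they overlapped in 16. Over the 12364 genes tested the shares were 30.7% above and 29.4% below. Treated MamBo43 lay between untreated MamBo43 and MamBo38 in 11 members and not in 27, for which no share over all genes is given.

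**Figure D2:**
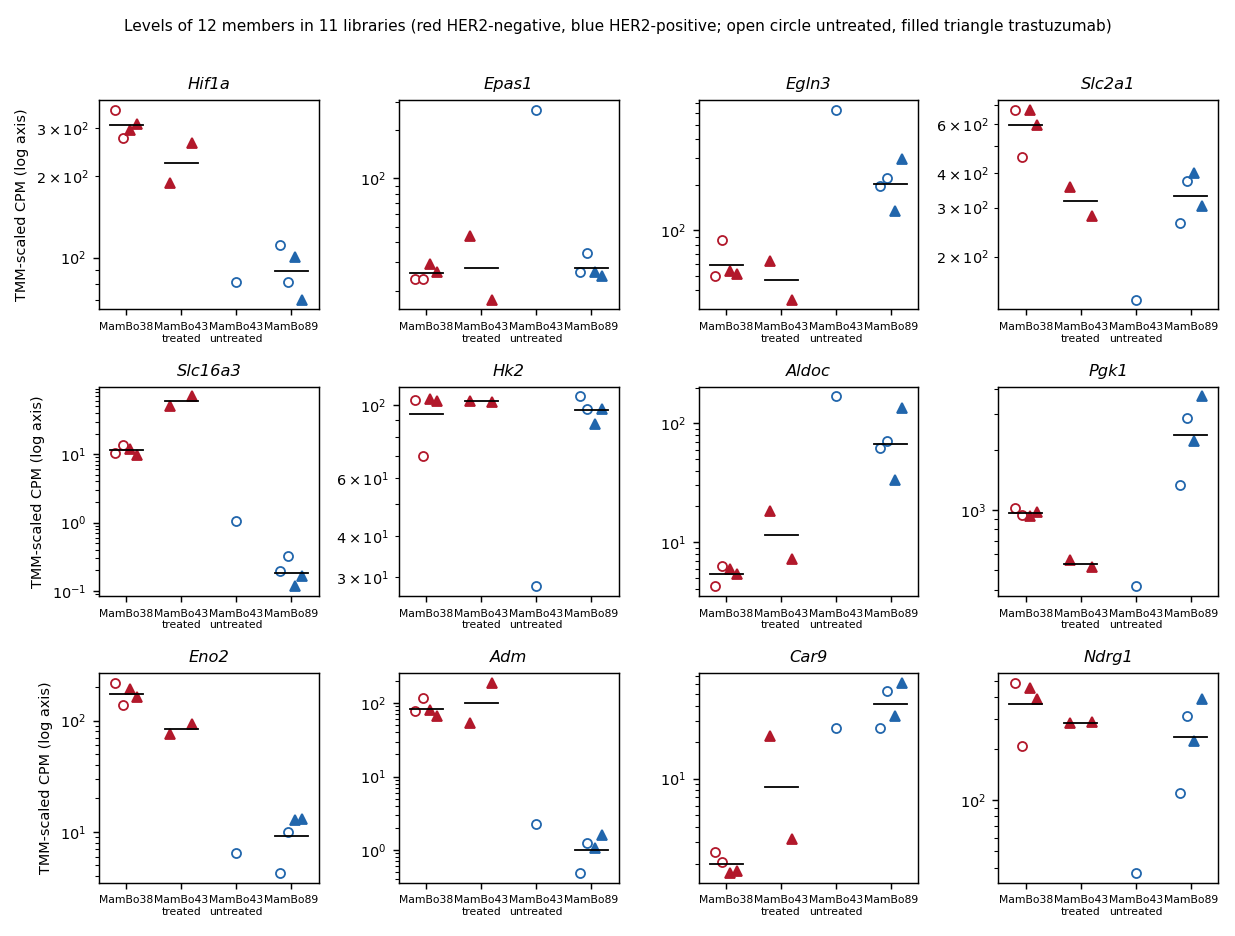
TMM-scaled CPM of 12 members on log axes, with 1 point per library by line; red is HER2-negative and blue HER2-positive, open circles are untreated and filled triangles trastuzumab-treated, and lines are geometric means. Hif1a, Eno2, Slc16a3 and Adm separate by color, with treated MamBo43 among the HER2-negative libraries, while Pgk1 separates MamBo89 from both other lines.

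The balance within 9 pairs of related genes was compared as a log2 ratio of CPM plus 0.5, with 2-sided exact permutation tests over all 462 splits (smallest p 0.00216) and adjustment over the 9. All 9 ratios passed an adjusted p under 0.1, and in 6 of them the groups did not overlap. Eno2 to Eno1 was −1.02 ± 0.43 (SD, n = 6) in HER2-negative and −6.06 ± 0.53 (SD, n = 5) in HER2-positive libraries (exact permutation adjusted p = 0.00487). Slc16a3 to Slc16a1 was −2.98 ± 1.04 and −7.45 ± 0.58 (exact permutation adjusted p = 0.00487). Aldoc to Aldoa was −7.47 ± 1.12 and −4.13 ± 1.01 (exact permutation adjusted p = 0.00649).

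The 6 ratios whose groups did not overlap were these 3 and those of Epas1 to Hif1a, Slc2a3 to Slc2a1 and Pfkfb4 to Pfkfb3. Epas1 to Hif1a was −3.37 ± 0.66 and −0.997 ± 1.56 (exact permutation adjusted p = 0.00649), and untreated MamBo43 was the only library above 0. Hk2 to Hk1, Ldhb to Ldha and Pfkp to Pfkl passed with overlapping groups (differences 1.01, 4.95 and 1.25, exact permutation adjusted p = 0.0219, 0.00835 and 0.0584). Within the libraries of the second code these 3 did not pass (exact permutation adjusted p = 0.115, 0.121 and 0.143). The Slc2a3 to Slc2a1 ratio depended on the pseudocount, since Slc2a3 was near 0: the difference was 1.73 with 0.5 CPM and −0.16 with 5 CPM.

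**Figure D3:**
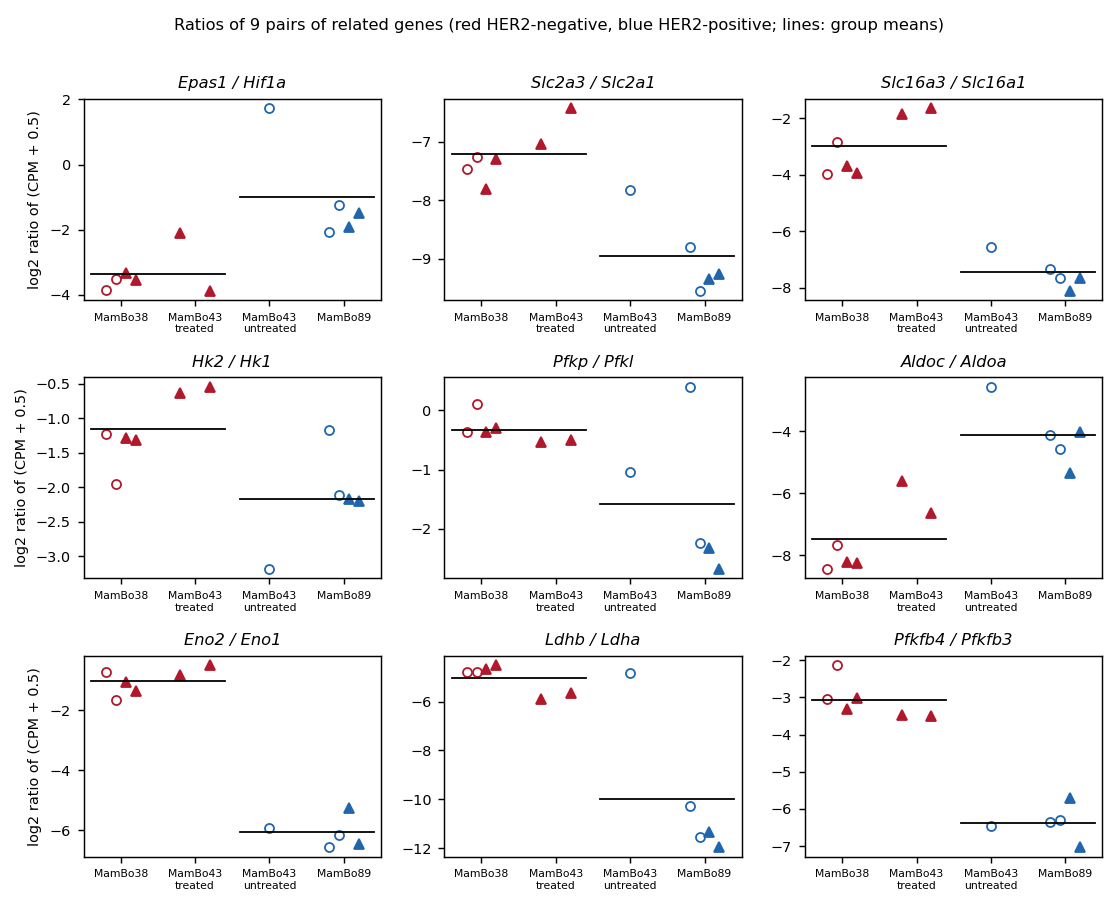
Log2 ratios of CPM plus 0.5 for 9 pairs of related genes, 1 point per library by line; red is HER2-negative and blue HER2-positive, open circles are untreated and filled triangles trastuzumab-treated, and lines are group means. The Eno2 to Eno1 panel shows the widest gap, with all HER2-negative libraries near −1 and all HER2-positive ones near −6.

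On a scale that divides counts by exon length, so that genes can be compared, Eno2 made up 26.5 to 41.0% of Eno1 plus Eno2 in MamBo38 and 39.0 and 44.9% in treated MamBo43. It made up 1.74% in untreated MamBo43 and 1.07 to 2.82% in MamBo89, so Eno1 remained the larger part in every library. With the counts of Eno1b, which shares reads with Eno1, added to those of Eno1, a setting chosen after seeing the data, Eno2 made up 15.05 to 25.3% in MamBo38, 23.2 and 28.5% in treated MamBo43, 0.879% in untreated MamBo43 and 0.514 to 1.37% in MamBo89. Aldoc made up 13.1% of the 2 aldolases in untreated MamBo43, 2.12 to 5.18% in MamBo89 and at most 1.74% in HER2-negative libraries. Hif1a made up 22.3% of Hif1a plus Epas1 in untreated MamBo43, the only library in which Epas1 was the larger part, beside 69.2 to 80.2% in MamBo89 and 80.3 to 93.5% in HER2-negative libraries.

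Of the 4 regulators, 1 was called higher and 2 lower. Pfkfb4 (chr9:108991778-109032228), which makes and breaks down the activator of phosphofructokinase, had 3.996 to 6.03 CPM in MamBo38, 2.45 and 3.29 in treated MamBo43, 0.197 in untreated MamBo43 and 0 to 0.0584 in MamBo89. The counts were 536 against 6, a ratio of 71.5 (interval 32.7 to 196), with an adjusted p of 0.000109. Of the 6 counts, 5 were in untreated MamBo43, so the ratio depends on that library beyond the counting interval. Pdk1 and Pdk3 encode kinases of pyruvate dehydrogenase, which hold pyruvate back from oxidation in the mitochondria. Pdk1 was lower by 2.43-fold (log2 −1.28 ± 0.41, adjusted p = 0.0222), with 111, 83.3 and 139 CPM in the parental and treated MamBo89 libraries and 21.9 to 38.7 CPM in all others. Without the MamBo89 60-day library Pdk1 had a log2 fold change of −0.97 (adjusted p = 0.0676) and was not called, and within tumor B it was 0.52. Pdk3 had 10.3 to 20.4 CPM in HER2-negative and 23.3 to 34.9 in HER2-positive libraries without overlap (log2 −1.14 ± 0.20, adjusted p = 0.000613). Pfkfb3 did not pass (log2 −0.28), at 28.0 to 46.0 beside 28.9 to 65.1 CPM.

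Of the 8 other HIF target genes, 4 were called, 2 in each direction. Adm (adrenomedullin, a vasodilator peptide, chr7:110627661-110629820) had 78.5, 116, 79.5 and 67.7 CPM in MamBo38 and 53.9 and 189 in treated MamBo43. It had 2.24 CPM in untreated MamBo43 and 0.485, 1.25, 1.05 and 1.60 in MamBo89. The groups were apart by more than an order of magnitude, at 97.5 ± 49.5 CPM (SD, n = 6) and 1.32 ± 0.652 (SD, n = 5), or 72.8-fold, with the lowest adjusted p of any member (log2 6.19 ± 0.49, adjusted p = 5.3e-06).

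Car9 (chr4:43506966-43513729), a carbonic anhydrase of the cell surface and a common hypoxia marker, went the other way. It had 2.51, 2.07, 1.67 and 1.73 CPM in MamBo38, 22.5 and 3.21 in treated MamBo43, 26.3 in untreated MamBo43 and 26.3, 52.3, 33.1 and 61.7 in MamBo89. The groups did not overlap, but the MamBo43 30 + 30-day library came close to the untreated one. The difference was 7.11-fold (log2 −2.83 ± 0.74, adjusted p = 0.00765). Its relative Car12 was higher, with 1.82 to 13.8 CPM beside 0 to 3.70 (log2 2.31 ± 0.87, adjusted p = 0.0431), and treated MamBo43, at 1.82 and 3.75, lay within the HER2-positive range or just above it.

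Ddit4, an inhibitor of mTORC1 signaling, had 48.7 to 102 CPM in HER2-negative libraries, 322 in AG3 and 66.5 to 154 in the other HER2-positive ones (log2 −1.03 ± 0.36, adjusted p = 0.0327), and −0.54 (adjusted p = 0.107) without AG3. It was not a call either without the second-code untreated MamBo38 or the MamBo43 30 + 30-day library. Bnip3 and Bnip3l, receptors for mitophagy, Ndrg1, a stress gene, and Ankrd37 did not pass. Bnip3 had 40.1 to 98.9 CPM in HER2-negative and 26.7 to 260.3 in HER2-positive libraries (log2 −0.80 ± 0.45, adjusted p = 0.157), and it was called lower without untreated MamBo43 (−1.06, adjusted p = 0.0164). Bnip3l (68.3 to 125 and 63.2 to 191 CPM, log2 −0.10) and Ankrd37 (3.71 to 17.0 and 3.21 to 10.4 CPM, log2 0.92 ± 0.44, adjusted p = 0.102) overlapped. Ankrd37 was called higher in 4 of the 11 fits that left out a library (log2 1.01 to 1.27), those without the second-code untreated MamBo38, either treated MamBo43 or the MamBo89 60-day library. Ndrg1 (chr15:66929318-66969640) had 486, 206, 455 and 388 CPM in MamBo38, 282 and 285 in treated MamBo43, 37.3 in untreated MamBo43 and 109.7, 309, 221 and 393 in MamBo89, so that only untreated MamBo43 and AG3 were low (log2 0.71 ± 0.49, adjusted p = 0.241).

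Because all but 1 of the HER2-positive libraries came from tumor A, the comparison was repeated within tumor B, with untreated MamBo43 (n = 1) as the only HER2-positive library, a setting chosen after seeing the data. Of the 38 genes 14 were called, 11 higher and 3 lower, beside 24.9% of 13282 genes (12.5% higher and 12.4% lower). Of these, 9 were among the 18 called over all libraries and in the same direction: Hif1a, Slc2a3, Slc16a3, Eno2, Pfkfb4 and Adm higher, and Epas1, Egln3 and Aldoc lower. The other 5, all higher, were Slc2a1 (log2 1.82, adjusted p = 0.0557), Hk2 (1.78, adjusted p = 0.0064), Pkm (1.45, adjusted p = 0.0508), Bnip3 (1.47, adjusted p = 0.0802) and Ndrg1 (3.20, adjusted p = 0.0106).

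The sign changed in 8 members, namely Gpi1, Aldoa, Tpi1, Gapdh, Pgk1, Ldha, Pdk1 and Bnip3. The log2 fold change was above 0 in 7 of the 17 enzymes over all libraries and in 13 of 17 within tumor B, with medians of −0.07 and 0.51. Pgk1 went from −1.35 to 0.96. For these 8 genes the sign depended on whether MamBo89 was included, and within tumor B it rested on 1 HER2-positive library.

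**Figure D4:**
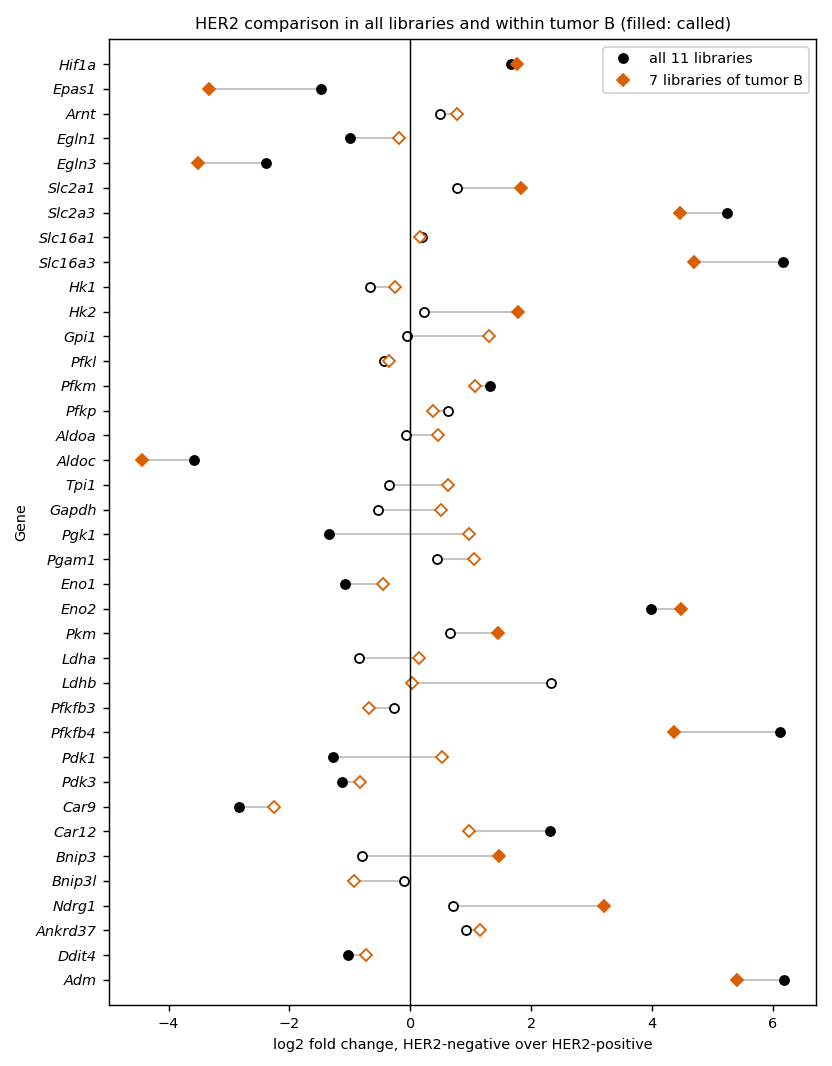
Log2 fold change of HER2-negative over HER2-positive libraries for each member, over all 11 libraries (circles) and over the 7 libraries of tumor B (diamonds); filled symbols were called. Hif1a, Egln3, Aldoc, Eno2 and Adm lie on the same side in both, while Pgk1, Pdk1 and Bnip3 cross 0.

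Untreated MamBo43 was also set against untreated MamBo89 (n = 1 and n = 2), which asks how the HER2-labile line differed from the stable one while both expressed HER2. The 2 MamBo89 libraries were the parental one and the AG3 clone, which are not replicates. Of the 36 members tested (Slc2a3 and Pfkfb4 had too few counts), 8 were called, 5 higher and 3 lower, or 22.2%, beside 7.40% of 12867 genes (4.87% higher and 2.53% lower). The log2 fold change was 3.17 ± 0.44 for Epas1 (9.01-fold higher in MamBo43, adjusted p = 0.000173) and 1.61 ± 0.48 for Egln3 (adjusted p = 0.0625). Aldoc (1.36 ± 0.43, adjusted p = 0.0854) and Bnip3l (1.39 ± 0.44, adjusted p = 0.0803) were also higher. Ldhb had 674 counts in untreated MamBo43 and 12 in the 2 MamBo89 libraries, a ratio of 93.4 (interval 53.1 to 182, adjusted p = 0.000196).

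Lower in the labile line were Hk2 (chr6:82725025-82774454), the hexokinase tied to tumor glycolysis, by 3.61-fold (28.0 CPM beside 107 and 97.4, adjusted p = 0.035), Bnip3 (chr7:138890836-138909519) by 4.60-fold (26.7 beside 86.0 and 163, adjusted p = 0.0217) and Ndrg1 by 5.53-fold (37.3 beside 109.7 and 309, adjusted p = 0.0239). Pgk1 (log2 −2.32 ± 0.77, adjusted p = 0.103) and Slc2a1 (−1.17, adjusted p = 0.279) did not pass in these 3 libraries. With 1 library on 1 side and a single residual degree of freedom, the spread of untreated MamBo43 itself was not measured. In a fit over all 11 libraries, whose residual spread comes from the other groups, 12 members of 38 tested were called, 6 higher and 6 lower, beside 15.5% of 13782 genes. There Pgk1 (log2 −2.34, adjusted p = 0.0186), Slc2a1 (−1.19, adjusted p = 0.0568) and Gapdh (−1.16, adjusted p = 0.0503) were called lower and Slc16a3 (2.001, adjusted p = 0.0236) and Pfkfb4 (adjusted p = 0.0498) higher, while Aldoc was not called (adjusted p = 0.242). Over all 11 libraries the level in untreated MamBo43 was the lowest in 10 members, among them Slc2a1, Hk2, Pgk1, Pkm, Bnip3 and Ndrg1, and the highest in Epas1, Egln3, Aldoc and Bnip3l. It was inside the range in 24 members. Shares over all genes are not given for these places.

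The labile line was then followed under trastuzumab, where MamBo43 lost most of its HER2 expression. The study grouped these cultures as HER2-negative, though a small share of HER2-positive cells stayed detectable in its treated cultures. The single untreated library is the same as in the comparisons with MamBo89 and within tumor B, and its spread was not measured but taken from the other groups of the fit. Between treated (n = 2) and untreated (n = 1) MamBo43, 14 members were called, 9 higher and 5 lower, or 36.8% beside 28.5% of 13782 genes (13.2% higher and 15.3% lower). Higher were Hif1a (log2 1.49 ± 0.34, adjusted p = 0.0141), the carriers Slc2a1 (1.19 ± 0.34, adjusted p = 0.0331) and Slc2a3 (117 counts beside 3, ratio 21.3, interval 7.12 to 105, adjusted p = 0.0227), and Slc16a3 by 57.3-fold (adjusted p = 0.000278). Hk2 rose 3.68-fold (adjusted p = 0.00194), from 28.0 to 103 and 102 CPM, and Eno2 13.1-fold (adjusted p = 0.00227). Pfkfb4 (136 counts beside 5, ratio 14.9, interval 6.22 to 46.5, adjusted p = 0.0104), Ndrg1 (7.62-fold, adjusted p = 0.0207) and Adm (54.4-fold, adjusted p = 0.00319) rose as well.

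Those that fell were Epas1 by 8.74-fold (adjusted p = 0.00169), Egln3 by 12.9-fold (adjusted p = 0.0017), Aldoc by 13.2-fold (adjusted p = 0.00692), Eno1 by 3.12-fold (adjusted p = 0.0243) and Bnip3l by 2.60-fold (adjusted p = 0.00984). Log2 fold changes of the abundant enzymes were 0.38 ± 0.45 for Pgk1 (adjusted p = 0.549), −0.06 for Gapdh, 0.08 for Ldha and −0.25 for Aldoa, and none of these 4 passed. Pkm, at 963 CPM in untreated and 1729.5 and 1969 in treated MamBo43, passed the p but not the fold (0.95 ± 0.36, adjusted p = 0.0816). The 17 enzymes together took 0.624% of the scaled counts in untreated and 0.695% and 0.664% in treated MamBo43, less than the 1.07 to 1.29% of MamBo38 and the 0.871 to 1.87% of MamBo89. Without the 30 + 30-day library Slc2a1 was no longer called (log2 0.98, adjusted p = 0.116) and Car9 was, and without the 60-day library Eno1 was not (−1.62, adjusted p = 0.102). Epithelial markers were still present in both treated libraries (Cdh1 at 202 and 71.9 CPM). The 8 together summed to 2489 and 397 CPM, beside 3891 in untreated MamBo43. The part of these markers in the values above was not tested.

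Treated MamBo43 was compared with MamBo38, 2 HER2-negative states of the same tumor. Here 7 members were called, 18.4% beside 20.2% of 13782 genes (10.3% higher and 9.88% lower), with 2 higher in treated MamBo43 and 5 lower. Slc16a3 was 5.34-fold higher (log2 2.42 ± 0.22, adjusted p = 0.000275) and Car9 was higher by 2.69 ± 0.64 on the log2 scale (adjusted p = 0.0163), the latter through the 30 + 30-day library, without which it was 0.71 (adjusted p = 0.359). Lower were Gpi1 (3.08-fold, adjusted p = 0.014), Pfkm (2.66-fold, adjusted p = 0.0253), Eno1 (3.02-fold, adjusted p = 0.0116), Eno2 (2.10-fold, adjusted p = 0.0371) and Ldhb (2.39-fold, adjusted p = 0.00509), all of them enzymes. Both treated MamBo43 libraries carry the second label code and 3 of the 4 MamBo38 libraries the first. With the libraries of the second code alone (n = 2 and n = 1) 6 members were called, beside 20.9% of 12745 genes. Eno2 (log2 −0.69, adjusted p = 0.0864) and Car9 (2.63, adjusted p = 0.227) were not called there and Car12 was (−2.30, adjusted p = 0.0554). Eno2 and Pfkm were not called without either treated MamBo43 library, and Eno2 was not called without the first-code untreated MamBo38 library (log2 −0.88, adjusted p = 0.0852). At the adjusted p alone, 11 of the 17 enzymes were lower and 0 higher, beside 37.1% of all genes (17.1% lower and 20.0% higher), with a median log2 fold change of −0.83 beside 0.02 over all genes. None of the 5 HIF subunit and hydroxylase genes passed.

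In the lines that kept their HER2 status, edgeR called no member between treated and untreated cultures (n = 2 each), either in MamBo89 or in MamBo38, with 0 of 13782 genes (0.00%) called by edgeR in either line. At an unadjusted p under 0.05 there were 724 genes and 2 members (Pfkp and Ldhb) in MamBo89, and 230 genes and 1 member (Pdk3) in MamBo38. DESeq2, another count model, called 29 genes (0.210%) and 1 gene (0.00726%), none of them a member. The result in MamBo89 depended on the untreated libraries, which were the parental one and the AG3 clone and not replicates. Without the parental one 11 members were called, 8 higher and 3 lower, beside 15.7% of 13699 genes, and without AG3 0. Within MamBo89 the 60-day library was highest in 26 of the 38 members, 14 of the 17 enzymes among them, and AG3 was lowest in 25, with 13 of the 17 enzymes. The shares over all genes are not given, so these ranks cannot be called particular to the members.

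The effect of trastuzumab in MamBo43 was tested against the mean effect in MamBo89 and MamBo38. The 2 differed in 13 members, 8 higher and 5 lower, or 34.2% beside 22.5% of 13782 genes (11.9% higher and 10.6% lower). The difference in log2 fold change was 1.60 ± 0.38 for Hif1a (adjusted p = 0.0243), 6.35 for Slc16a3 (adjusted p = 0.000965), 1.83 for Hk2 (adjusted p = 0.00597), 3.30 for Eno2 (adjusted p = 0.0081) and 5.66 for Adm (adjusted p = 0.0079). It was −3.11 for Epas1 (adjusted p = 0.00572), −3.52 for Egln3 (adjusted p = 0.00634) and −3.95 for Aldoc (adjusted p = 0.0157).

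Of a list of 56 other genes of the pathways, 44 were tested in the HER2 comparison and 18 were called, 11 higher and 7 lower, where 32.8% of all genes were called (15.8% higher and 17.0% lower). Those of glycolysis gave 5 of 15 tested (3 higher and 2 lower), and those of the HIF pathway gave 13 of 29 (8 higher and 5 lower). Lox, an oxidase that crosslinks collagen, had 94.1 to 130 CPM in MamBo38, 117 and 348 in treated MamBo43, 9.63 in untreated MamBo43 and at most 0.776 in MamBo89 (log2 6.07 ± 1.21, adjusted p = 0.00159). Pdk4, another kinase of pyruvate dehydrogenase, had 256 counts in HER2-negative and 0 in HER2-positive libraries, at least 68.3-fold higher against a floor of 3 counts over the group (adjusted p = 0.00141), and 0.626 to 6.42 CPM where it was seen. Of the 256 counts, 115 were in the second-code untreated MamBo38 library.

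Heme oxygenase Hmox1 (log2 3.55 ± 0.25, adjusted p = 3.01e-06), the glycogen branching enzyme Gbe1 (2.68 ± 0.46, adjusted p = 0.000632) and the oxidoreductase Ero1l (2.30 ± 0.33, adjusted p = 0.000193) were also higher without overlap. The transferrin receptor Tfrc was 10.7-fold lower (adjusted p = 6.2e-05) and the repressor Bhlhe40 4.02-fold lower (adjusted p = 0.000556). Bhlhe40 had 76.5 to 185 CPM in HER2-negative and 277 to 910 in HER2-positive libraries.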

How the data were processed

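Total RNA of 11 cultures was made into libraries with a TruSeq RNA kit and read as 75-base single ends. The authors aligned and quantified reads with STAR 2.5 and RSEM 1.3.0 on mouse build mm10 and deposited expected counts, all of them whole numbers and not normalized. The strand was not marked, and the annotation is not given in the sources used here.

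In R 4.3.3, genes were filtered with edgeR 4.0.16 (filterByExpr, minimum count 10, minimum total 15), scaled by TMM and tested with glmQLFit and glmQLFTest, with Benjamini-Hochberg adjustment over all genes tested. A call needs an adjusted p under 0.1 and a log2 fold change of 1 or more in size. The SE is the log2 fold change over the square root of F. One fit over 6 groups gave the comparisons within lines, which share control libraries. DESeq2 1.42.0 was an alternative. On simulated data the HER2 fit recovered 99.5% of 200 genes changed 8-fold, with 4 false calls among the 12329 genes tested. In the other comparisons 93.5 to 100% were recovered, with 9 to 32 false calls. The simulation gave each unchanged gene 1 mean in all libraries. It therefore holds no differences between lines within a HER2 group and cannot show how the pooled HER2 fit deals with them.

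HER2 status came from the methods of the study. AG3 is taken as the HER2-positive MamBo89 clone that the methods of the study list, though its labels do not call it one. It is the only untreated MamBo89 library besides the parental one. Clone and parental library were pooled as untreated MamBo89, so the spread between them is not one between replicates. The text names all 38 members and, of the other pathway genes, up to 5 called without overlap in each direction. Members and lists were chosen with earlier results of these data known. No 2 libraries of a group were identical, and counts of 5 same-group pairs differed by more than sampling noise. Intervals cover counting error only. Aldoa has a second identifier with 2 to 150 counts, which was not used.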

Additional observations from a re-analysis of the deposited data

Results flagged for a closer look

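Single libraries stood apart from the rest of their group, by the gap to the nearest library over the range, in 15 of 152 checks of a member in a group of 4 to 6 libraries. The limit used is one that chance passes in about 1 in 20 separate groups, and these checks share libraries, so that rate is only a guide. The untreated MamBo38 library of the second label code stood apart in Hk2 (70.0 CPM, among HER2-negative and among MamBo38 libraries), Pdk3 (20.4), Egln3 (86.6) and Pfkl (191). The MamBo43 30 + 30-day library was high among HER2-negative libraries in Aldoc (18.4 CPM) and Car9 (22.5), and the MamBo43 60-day library was low in Ldha (743 CPM).

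Untreated MamBo43 stood apart among HER2-positive libraries in Epas1 (269 CPM), Slc16a3 (1.06), Hk2 (28.0) and Ldhb (26.5). Within MamBo89, AG3 was high in Pfkp (261 CPM), the parental library in Epas1 (34.2) and the 30 + 30-day library in Pfkfb4 (0.0584 CPM, a single count).

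The trastuzumab effect in MamBo43 differed from the mean effect in MamBo89 and MamBo38 in 13 members, by edgeR's test of the difference. The difference in log2 fold change was above 0 for Hif1a (1.60), Slc2a1 (1.04), Slc2a3 (4.21), Slc16a3 (6.35), Hk2 (1.83), Eno2 (3.30), Ndrg1 (2.51) and Adm (5.66). It was below 0 for Epas1 (−3.11), Egln3 (−3.52), Aldoc (−3.95), Eno1 (−1.91) and Bnip3l (−1.59). The calls of Slc2a1, Slc2a3 and Ndrg1, with adjusted p of 0.0968, 0.0694 and 0.0601, were lost in several fits without 1 library, and untreated MamBo43 is a single library in all of them.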

How the results depend on the processing

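No paired analysis was run, because the labels give no replicate numbers that the groups share, only treatment schedules and label codes. Of 119 alternative counts of called members, 114 stayed within 1.5 times. That tally includes the MamBo89 and MamBo38 comparisons, most of which stayed at 0 and so cannot show stability. It also compares only the number of calls and not the genes called. The fit within tumor B, which lost and gained genes, therefore counts as unchanged. The HER2 count of 18 was 10 in untreated libraries only. Shares over all genes are not given beside these alternative counts, so a change may follow one over all genes. The untreated MamBo43 against MamBo89 count of 8 was 3 with at least 10 counts in every library and 5 at an adjusted p under 0.05. The treated MamBo43 against MamBo38 count of 7 was 16 with no minimum fold change. Leaving out 1 library gave 16 to 20 in the HER2 comparison, 13 to 14 in treated MamBo43, 6 to 9 for treated MamBo43 against MamBo38, 0 to 11 in MamBo89 (11 without the parental untreated library), 0 in MamBo38 and 9 to 16 for the difference of effects. It was not possible for the single untreated MamBo43 library in comparisons that need it. Leaving out a library of a pair leaves 1 library, assumed to vary like the other groups. DESeq2 called 16 in the HER2 comparison, without Egln1 (log2 −0.99), and gave no adjusted p for Epas1.

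The Slc2a3 to Slc2a1 difference was −0.16 with a pseudocount of 5 CPM. With the second label code only, the differences were 1.13 for Hk2 to Hk1, 1.26 for Pfkp to Pfkl and 4.55 for Ldhb to Ldha, none passing. Pfkp to Pfkl ranged from 0.97 to 1.74 without 1 library and did not pass in 4 of those fits. The exact p-values there have fewer splits to draw on.

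Log2 fold changes in the HER2 comparison that turned sign, with tumor of origin as a covariate and then within tumor B, were those of Gpi1 (1.33, 1.30), Aldoa (0.49, 0.46), Tpi1 (0.65, 0.62), Gapdh (0.54, 0.51), Pgk1 (0.99, 0.96), Ldha (0.17, 0.14), Pdk1 (0.55, 0.52) and Bnip3 (1.50, 1.47). In untreated libraries Slc16a1 (−0.022), Gpi1 (0.52), Aldoa (0.28), Tpi1 (0.12) and Bnip3l (0.10) turned. Without 1 library the ranges were −0.26 to 0.25 for Gpi1, −0.18 to 0.11 for Aldoa and −0.23 to 0.19 for Bnip3l. The causes were not tested. Untreated MamBo43 is a single library, and members with few counts have wide counting intervals.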
